A study of Mus musculus with 6 samples.

Results

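Oxidative and antimicrobial defence of the colonic epithelium was followed at the promoters of 10 genes in mouse colonic organoids, which are epithelial cultures grown in a gel from colonic crypts. The genes were Nos2, Duox2, Duoxa2, Nox1, Lcn2, S100a8, S100a9, Reg3b, Reg3g and Pigr. They were chosen by their roles in defence with the peak calls of these same libraries known, so their promoter values are given as a description, with no test. All 10 were found among the 21924 protein-coding gene symbols (55341 symbols of all types) of the GENCODE annotation of GRCm38/mm10. The wt organoids had the C57BL/6 genotype with no genetic alteration and received no TNFα, and the wt+TNFα organoids had the same genotype and received TNFα at 40 ng/ml over 3 weeks. Both were grown in the same conditioned medium, which held inhibitors of p38 and of the TGFβ receptor. H3K4me3 and H3K27me3 were profiled by ChIP-seq. Each mark had 1 library in each condition, beside 1 input, so no difference between conditions has a replicate check and none has a p-value. The libraries were made from bulk cultures, in which a mark on all cells and a mark on some of them cannot be told apart. Nothing in the labels says how many animals the organoids came from.

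H3K4me3 is deposited around the starts of genes that are transcribed or ready to be, and H3K27me3 is the mark that Polycomb complexes leave on repressed genes. In the colon, the products of these genes act at the interface with bacteria. Nos2 makes nitric oxide, Duox2 and Nox1 make hydrogen peroxide and superoxide at the epithelial surface, Lcn2 and the S100a8/S100a9 pair (calprotectin) withhold iron, zinc and manganese, Reg3b and Reg3g are secreted lectins that bind bacteria, and Pigr carries immunoglobulin A into the lumen. Most of them are known as genes that inflammation induces.

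Promoter sequences are shown for 5 genes that differed in their marks. They are the 250 bases before the RefSeq start (GRCm38.p6), 5′ to 3′ on the strand of the gene, and capitals mark CpG pairs and, as runs of 6 letters or more, motif matches. Of the 10 genes, 9 had an entry in the RefSeq promoter table (all but Nos2), and the windows of 5 held no annotated exon base.

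Duoxa2 (chr2:122298650-122298899, + strand), which lay outside H3K27me3 peaks in wt and wholly under one in wt+TNFα:
Duoxa2: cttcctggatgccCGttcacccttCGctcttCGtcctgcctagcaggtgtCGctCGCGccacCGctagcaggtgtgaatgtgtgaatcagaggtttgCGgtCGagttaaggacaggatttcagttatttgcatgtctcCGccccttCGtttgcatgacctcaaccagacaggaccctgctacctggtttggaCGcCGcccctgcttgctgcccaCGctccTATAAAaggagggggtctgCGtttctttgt
Nox1 (chrX:134111855-134112104, - strand), under no peak, in the gap between the H3K27me3 peaks of wt+TNFα:
Nox1: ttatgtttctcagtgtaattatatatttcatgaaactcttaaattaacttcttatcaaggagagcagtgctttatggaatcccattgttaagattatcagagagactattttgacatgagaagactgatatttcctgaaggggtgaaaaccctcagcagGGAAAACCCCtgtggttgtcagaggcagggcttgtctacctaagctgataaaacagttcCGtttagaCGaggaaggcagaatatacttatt
S100a9 (chr3:90695722-90695971, - strand), under H3K27me3 in both conditions:
S100a9: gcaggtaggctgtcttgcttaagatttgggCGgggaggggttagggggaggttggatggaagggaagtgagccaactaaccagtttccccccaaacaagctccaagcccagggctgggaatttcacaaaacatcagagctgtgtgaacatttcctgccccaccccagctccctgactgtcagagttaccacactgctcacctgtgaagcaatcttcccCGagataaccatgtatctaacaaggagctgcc
Reg3g (chr6:78468875-78469124, - strand), far from any peak:
Reg3g: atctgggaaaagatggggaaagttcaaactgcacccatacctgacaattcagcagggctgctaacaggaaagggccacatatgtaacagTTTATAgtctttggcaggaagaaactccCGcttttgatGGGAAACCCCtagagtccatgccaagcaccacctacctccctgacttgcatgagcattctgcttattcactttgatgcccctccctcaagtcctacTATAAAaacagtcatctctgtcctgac
Pigr (chr1:130826434-130826683, + strand), under H3K4me3 in both conditions:
Pigr: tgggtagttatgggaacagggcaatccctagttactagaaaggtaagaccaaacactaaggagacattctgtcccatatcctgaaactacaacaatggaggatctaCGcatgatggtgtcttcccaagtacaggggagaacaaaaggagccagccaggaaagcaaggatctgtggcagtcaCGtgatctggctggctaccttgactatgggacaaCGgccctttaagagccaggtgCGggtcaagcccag

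These promoters were poor in CpG. Of the 9 genes with an entry, 8 held fewer CpG than the median of 10 over the 21263 protein-coding promoters of the table, from 1 in Reg3g to 6 in Duox2. Duoxa2 was the exception with 15. Across all protein-coding promoters, H3K4me3 followed CpG: in wt, peaks covered some of the window in 3.04% of those with 0 to 2 CpG, in 24.1% of those with 3 to 9 and in 77.2% of those with 10 or more. Pigr, with 4 CpG, was fully under H3K4me3 in both conditions, whereas the CpG-rich window of Duoxa2 was under no H3K4me3 peak in either.

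Motifs were searched on both strands of the same windows, and a match is a description of letters and not a site of binding. The NF-κB consensus was found in Nox1, with its first base 91 bp before the start, and in Reg3g at 123 bp, against 4.18% of all protein-coding promoters. The TATA box (TATAAA) was found in Duoxa2 and S100a8 at 30 bp, in Reg3b at 29 bp and in Reg3g at 27 bp, with a second match in Reg3g at 161 bp, against 11.6% of all. The STAT element (TTCNNNGAA) was found in Reg3b alone, at 129 bp (6.58% of all), the CCAAT box (CCAAT) in Duox2 alone, at 183 bp (35.4% of all), and the IRF element (GAAANNGAA) in none of the 9 (6.84% of all). The Reg3b and Reg3g windows were 70.0% identical over 247 aligned bases, where the same alignment gave 61.4% for Duox2 and Duoxa2 and 57.8% for S100a8 and S100a9, and no peak of any list touched either of them.

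The wt and wt+TNFα libraries differed over the whole genome in ways that touch the values of these genes. The H3K27me3 list held 30594 peaks over 102 Mb in wt and 60540 over 303 Mb in wt+TNFα, and the H3K4me3 lists held 11552 and 11894 peaks. On chromosome X, where Nox1 lies, 0.597 Mb lay under H3K27me3 in wt, against 74.7 Mb in wt+TNFα. The H3K4me3 peak of Xist, the RNA that coats an inactive X, was 810 bp wide in wt and 4105 bp in wt+TNFα, and Kdm5d, Eif2s3y and Uty of chromosome Y had an H3K4me3 peak in wt and none in wt+TNFα. Cultures from a male and a female animal would differ in these signals, and the labels give neither the animals nor their sex. A difference in source animals would touch every comparison of wt with wt+TNFα, at autosomal genes too, and cannot be told apart from the treatment. The study lists more reads for wt+TNFα than for wt in the H3K4me3 and input libraries. The labels call the cells epithelial, and 12 of 12 epithelial genes (Epcam, Cdh1, Cdx2 and others) had a promoter H3K4me3 peak in wt and 11 in wt+TNFα (all but Krt20), with no promoter H3K27me3 peak. Of 15 markers of immune, stromal, endothelial, muscle and glial cells, none had H3K4me3 in wt and 1 had it in wt+TNFα, the neutrophil gene Ly6g, over 47.7% of its promoter, while Ptprc, Itgam, Csf1r and Mpo had none.

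A promoter was taken to reach 1000 bp to either side of each annotated start, and 1 shared base was enough for a call. H3K4me3 was called at the promoter of 1 of the 10 genes in wt (Pigr) and of 3 in wt+TNFα (Nos2, Nox1 and Pigr), against 50.5% and 51.2% of protein-coding genes. H3K27me3 was called at 5 in wt (Nos2, Duox2, Duoxa2, S100a8 and S100a9) and at 4 in wt+TNFα (Duox2, Duoxa2, Nox1 and S100a9), against 21.7% and 29.5%. By base, H3K4me3 was gained in wt+TNFα at 3 of the 10 (Nos2, Nox1 and, at the edge of a peak present in both conditions, Pigr) and lost at 0, where 40.9% of protein-coding genes gained and 21.1% lost it. Among peaks above the median −log10 q of each list, H3K4me3 was called at 0 of the 10 in either condition. H3K27me3 was gained at 4 and lost at 2 (Nos2 and S100a8), against 20.6% and 5.22%. With whole peaks subtracted, the gain was 1 gene (Nox1) and the loss 1 (Nos2). The loss was also 1 gene with promoters of 500 bp (Nos2), with 1 start per gene (S100a8) and when weaker peaks were left out (Nos2). Lcn2, Reg3b and Reg3g had no promoter peak in any of the 4 lists, a pattern shared by 26.3% of protein-coding genes. Since the genes were selected on these lists, nothing is read from the distance between their counts and these background shares.

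**Figure D1:**
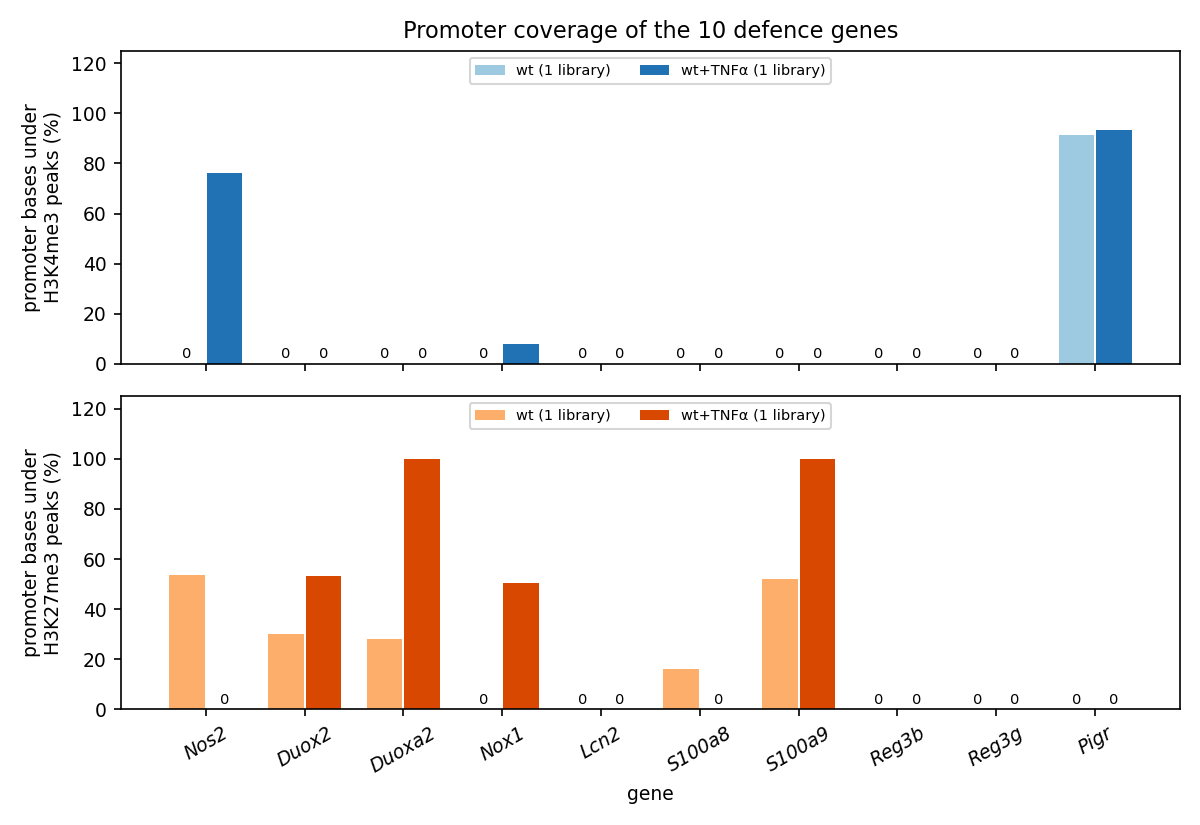
Percent of promoter bases (1000 bp to either side of each start) under H3K4me3 peaks (top) and H3K27me3 peaks (bottom) for the 10 genes, in wt (light) and wt+TNFα (dark), 1 library per bar and no error bar. Nos2 shows H3K4me3 in wt+TNFα alone (76.1%) and H3K27me3 in wt alone (53.8%), and Pigr has H3K4me3 in both conditions (91.4% and 93.2%).

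Nos2, the inducible nitric oxide synthase (chr11:78920787-78960254, + strand), had H3K27me3 alone at its promoters in wt and H3K4me3 alone in wt+TNFα. H3K4me3 covered 0 of its promoter bases in wt and 76.1% in wt+TNFα. For H3K27me3 these values were 53.8% and 0. The nearest wt H3K4me3 peak lay 93.5 kb away, at Lyrm9, and the nearest wt+TNFα H3K27me3 peak 86.5 kb away. The wt+TNFα H3K4me3 peak (chr11:78920146-78925497) was 5352 bp wide, wider than 99.2% of the peaks of its list, with a fold enrichment over the local background of 21.4, higher than 36.7% of them. Its summit lay 299 bp downstream of the first start, and it held 641 bp upstream of the gene, 585 bp of exon and 4126 bp of intron. The wt H3K27me3 peak (chr11:78923802-78926339) was 2538 bp wide with a fold enrichment of 2.54, higher than 88.5% of its list, and a −log10 q of 2.17.

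The 2 marks did not lie over the same bases at every Nos2 start. Nos2 has 3 annotated starts. At the first, a protein-coding start at position 78920787, H3K4me3 covered 82.1% of the surrounding 2001 bp in wt+TNFα and H3K27me3 covered 0 in both conditions. At position 78924740, the start of a noncoding transcript, H3K27me3 covered 96.9% in wt and H3K4me3 87.9% in wt+TNFα. At position 78925203, a second protein-coding start, the values were 100% and 64.7%. The 2 peaks shared 1696 bp, which is 66.8% of the wt H3K27me3 peak and 31.7% of the wt+TNFα H3K4me3 peak. With the first start alone, the H3K4me3 call stood and the H3K27me3 call in wt was gone.

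The pattern of Nos2 over the 4 lists was found in 25 protein-coding genes including Nos2, which is 0.114% of them. Among these were Icam1, the adhesion molecule that leukocytes bind, Plau, the urokinase plasminogen activator, and Psmb8, a subunit of the immunoproteasome. Their wt+TNFα H3K4me3 covered 58.1%, 41.4% and 23.7% of the promoter. Over the 25, this value ran from 7.24% at Ano1 through a median of 27.3% to that of Nos2, the highest, with Nt5c1a next at 66.6%. Nos2 was chosen with these peak calls known, so nothing is read from its rank.

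**Figure D2:**
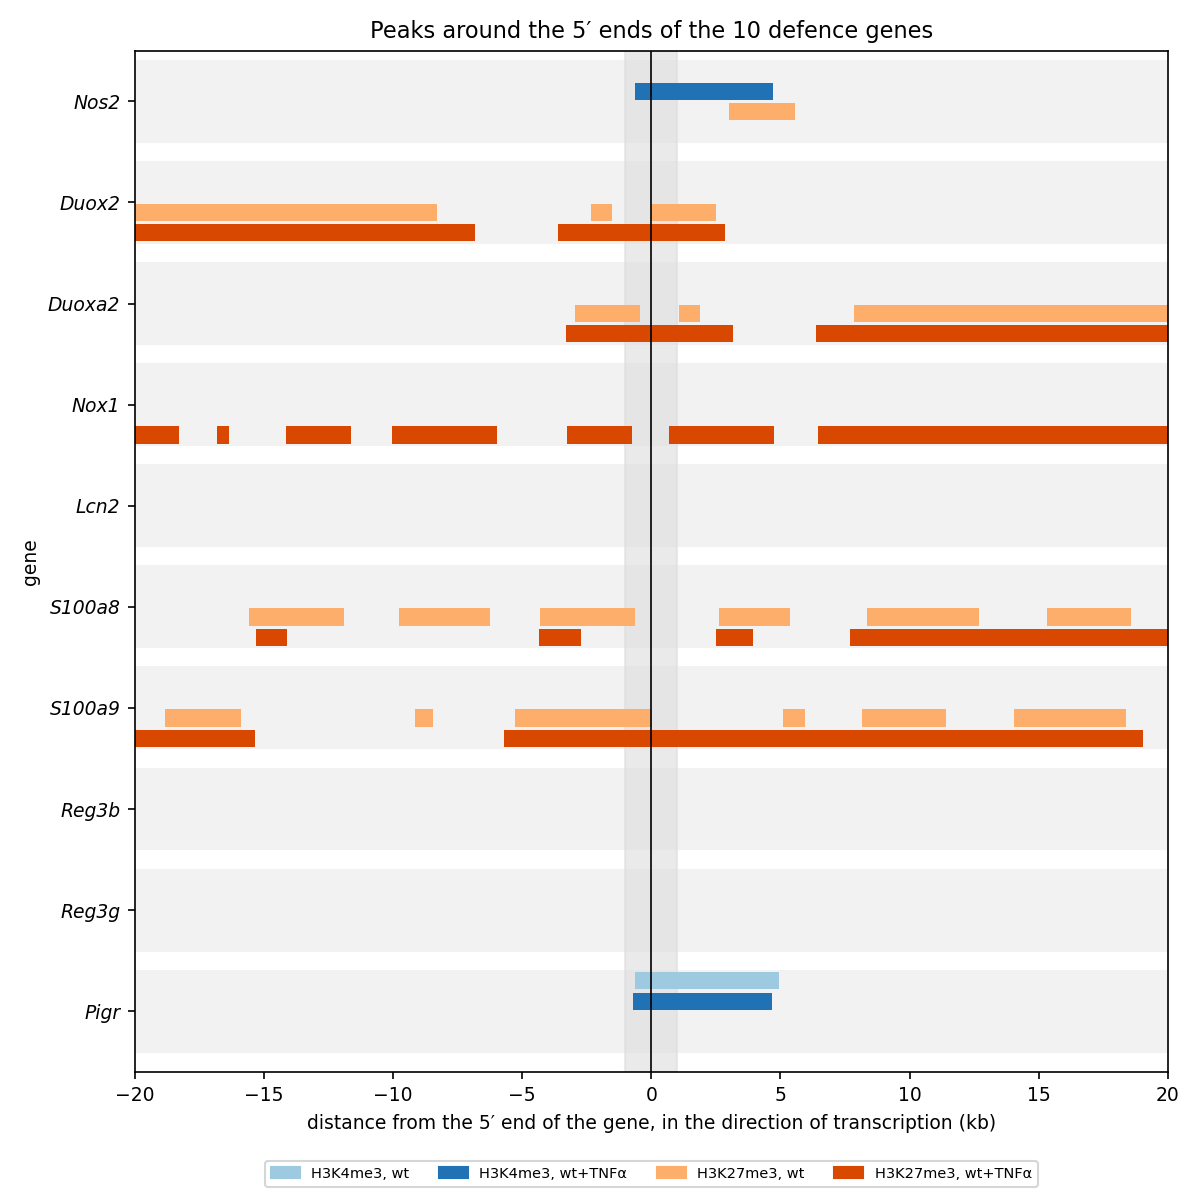
Peaks of the 4 lists within 20 kb of the 5′ end of each gene, drawn to scale in the direction of transcription (kb), with wt and wt+TNFα in light and dark shades of blue (H3K4me3) and orange (H3K27me3), and the promoter of the outermost start shaded. H3K4me3 stands at Nos2 and Pigr alone here, because the Nox1 peak lies over 100 kb downstream of that gene's outermost start, and the rows of Lcn2, Reg3b and Reg3g are empty.

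Duox2, the dual oxidase that makes hydrogen peroxide (chr2:122279247-122298449, - strand), and Duoxa2, the maturation factor that it needs to reach the cell surface (chr2:122298900-122302885, + strand), lie head to head with 450 bp between their outermost starts. Neither had H3K4me3 at its promoters in wt or in wt+TNFα, and the nearest H3K4me3 peak lay 49.7 kb from Duoxa2 in both conditions. Both had H3K27me3 in both conditions and over more bases in wt+TNFα. The covered part was 30.2% in wt against 53.3% in wt+TNFα at Duox2, and 27.9% against 100% at Duoxa2. The Duox2 values include the start of a noncoding transcript at position 122285569, with 0 in both conditions. Around its protein-coding starts, at positions 122298165 and 122298449, the values were 64.6% and 50.4% in wt and 100% in wt+TNFα. Under the other promoter settings, the wt value was 12.8% to 50.4% at Duox2 and 5.79% to 58.7% at Duoxa2. In wt+TNFα it was 51.7% to 100% at Duox2 and 100% at Duoxa2. These 2 genes share a peak and are not separate observations.

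The shared wt peak (chr2:122295933-122298457) was 2525 bp wide and ended 8 bp past the outermost Duox2 start, so that it covered 8 of the 450 bp between the genes. In wt+TNFα the peak (chr2:122295601-122302073) was 6473 bp wide, covered all 450 bp, and ran into Duoxa2 over 769 bp of its coding exons. In the RefSeq windows, the bases under H3K27me3 went from 230 to 250 of 250 at Duox2 and from 0 to 250 at Duoxa2, over the sequence printed above. The fold enrichments of this peak, 3.44 in wt and 3.24 in wt+TNFα, were higher than 97.2% and 97.8% of the peaks of their lists, the highest ranks among the promoter peaks of the 10 genes, and its −log10 q values were 6.70 and 9.42. At the paralogs Duox1 and Duoxa1, next to them on chromosome 2, an H3K27me3 peak of 12717 bp in wt and 14431 bp in wt+TNFα covered 100% of the Duox1 promoter in both conditions, and 61.0% and 89.0% of that of Duoxa1. From Duox2 to Duoxa1, over 34484 bp, 29.9% of the bases lay under H3K27me3 in wt against 43.3% in wt+TNFα, with no H3K4me3 peak in either.

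**Figure D3:**
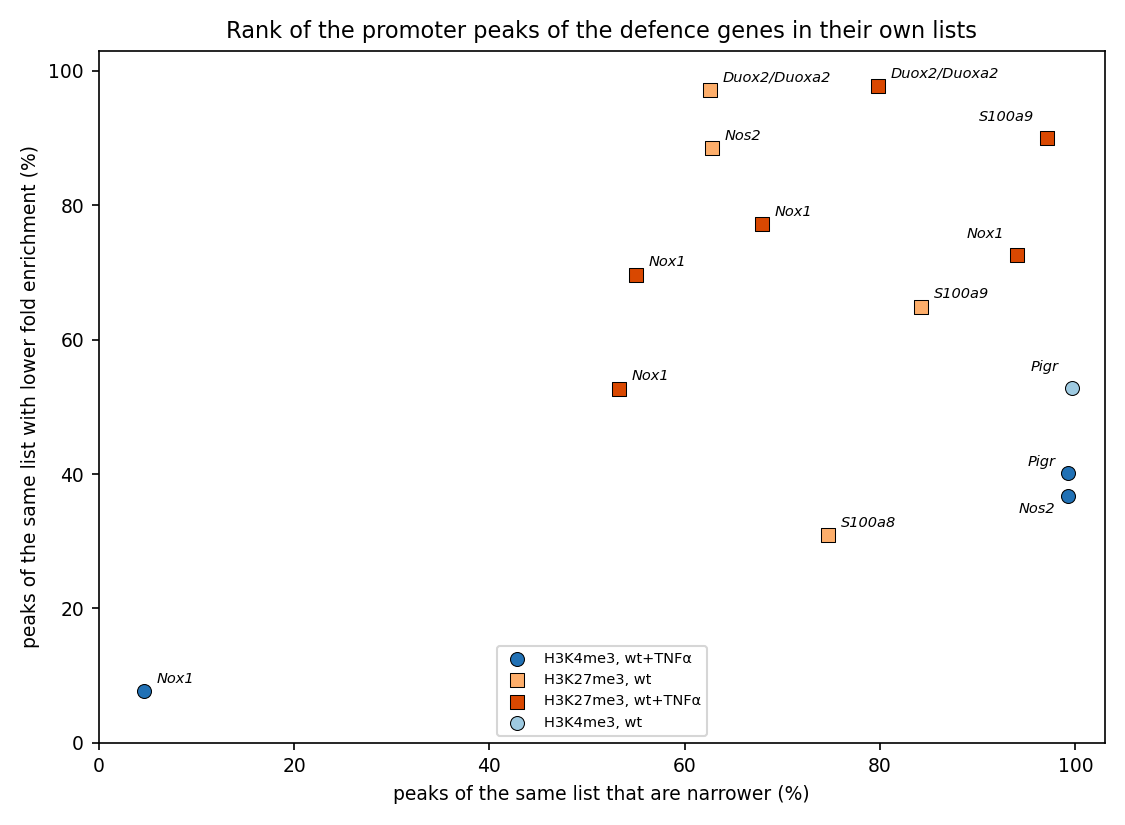
Rank of each promoter peak of the 10 genes within its own list, as the percent of peaks that are narrower (horizontal axis) and that have a lower fold enrichment (vertical axis), with circles for H3K4me3 and squares for H3K27me3. The Duox2/Duoxa2 peak stands at the top in both conditions (97.2% and 97.8%), the Nos2 and Pigr H3K4me3 peaks are among the widest (99.2% and 99.6%), and the Nox1 H3K4me3 peak is among the narrowest and weakest (4.61% and 7.72%).

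Nox1, the superoxide-producing oxidase of the colonic epithelium (chrX:134086421-134221956, - strand), was without a promoter peak of either mark in wt and had both in wt+TNFα. The H3K4me3 call was lost with 1 start per gene, with promoters ending at the start and with peaks above the median −log10 q alone, and the H3K27me3 call with a −log10 q of at least 2. In wt+TNFα, 8.07% of its promoter bases lay under H3K4me3 and 50.5% under H3K27me3. The H3K4me3 peak (chrX:134111054-134111549) was 496 bp wide with a fold enrichment of 7.30, higher than 7.72% of its list, and its summit lay 428 bp downstream of the nearest start, in an intron. In wt the nearest H3K4me3 peak lay 51.6 kb from the nearest start, at Cstf2. The pattern of Nox1 over the 4 lists was found in 21 protein-coding genes, 0.0958% of them.

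The marks at Nox1 differed between its 5 starts. Near the 3 clustered starts at positions 134111708, 134111765 and 134111854, H3K4me3 covered 24.8% of the surrounding 2001 bp in wt+TNFα, and H3K27me3 20.2% to 27.5%. At the start at position 134137711 H3K27me3 covered 100%, and at the outermost start, at position 134221956, 27.8%, with no H3K4me3 at either. The gene body was under H3K27me3 over 0 of its length in wt and 78.3% in wt+TNFα, in 13 peaks with fold enrichments of 1.77 to 2.11. These peaks left 12 gaps of 1469 to 4329 bp. The gap of 2071 bp (chrX:134110234-134112304), than which 4 others were wider, held the H3K4me3 peak, the 3 clustered starts and the printed sequence with its NF-κB match.

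H3K27me3 at Nox1 moved with the rest of chromosome X. Of the 948 protein-coding genes there, 11.9% had a promoter H3K27me3 peak in wt and 78.2% in wt+TNFα, against 22.3% and 27.5% of 20780 autosomal genes, and 76.3% of the X-linked genes gained it by base. H3K4me3 was gained at 26.2% of X-linked and 42.0% of autosomal genes. Of the 329 H3K4me3 peaks of chromosome X in wt+TNFα, 22.5% shared no base with an H3K27me3 peak, as at Nox1, against 92.0% of the autosomal ones. At Nox1, the treatment and the difference of the whole chromosome cannot be told apart.

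**Figure D4:**
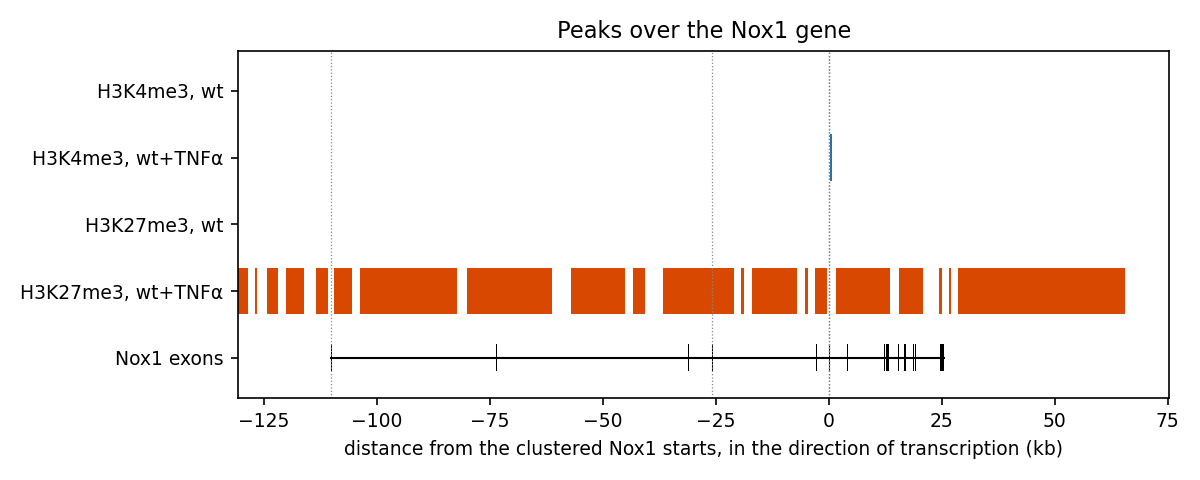
Peaks of the 4 lists over the Nox1 gene and 20 kb on each side, in kb from its clustered starts in the direction of transcription, with exons in black and annotated starts as dotted lines. H3K27me3 of wt+TNFα covers 78.3% of the gene in 13 peaks with 12 gaps between them, the 496-bp H3K4me3 peak lies in the gap of 2071 bp at the clustered starts, and both wt rows are empty.

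Lcn2, which encodes lipocalin 2, a protein that binds bacterial iron carriers (chr2:32384633-32388252, - strand), had no peak of either mark at any of its 6 starts, over its gene body or within 10 kb of its 5′ end in wt or wt+TNFα. The nearest H3K4me3 peak was the one at Ciz1, 21.8 kb away in wt and 21.9 kb in wt+TNFα. The nearest H3K27me3 peak lay 32.8 kb away in wt and 28.1 kb in wt+TNFα.

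S100a8 (chr3:90668978-90670035, + strand) and S100a9 (chr3:90692632-90695721, - strand), the subunits of calprotectin, lie in 1 cluster of S100 genes, and H3K27me3 covered fewer promoter bases in wt+TNFα at S100a8 and more at S100a9. At S100a8 the covered part was 16.3% in wt and 0 in wt+TNFα, and at S100a9 it was 52.0% and 100%. The gain at S100a9 lay downstream of its starts: from 1000 bp upstream to the start, the covered part was 100% in both conditions. No H3K4me3 was called at either promoter in any condition. The nearest H3K4me3 peak in wt, at S100a6, lay 53.5 kb from S100a8, and in wt+TNFα a peak of 432 bp lay 41.4 kb from it.

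At S100a8 the change lay at the edge of a weak peak. The wt peak (chr3:90664686-90668357) ended 621 bp before the first start and reached 380 bp of the promoter, with a fold enrichment of 2.03, higher than 30.9% of its list, and a −log10 q of 0.722. The lowest −log10 q listed was 0.302 in wt and 0.747 in wt+TNFα, so the wt peak lay below every peak of the wt+TNFα list, and the part of this in the loss was not tested. In wt+TNFα the peak at the same place ended 2706 bp before that start. Among the wt H3K27me3 peaks this one lay farthest from its start with a call, and the nearest one without a call was a peak of 792 bp lying 1079 bp from the Duoxa2 start. S100a8 was without a call when promoters were 500 bp on each side or when weaker peaks were left out. The wt peak of S100a9 (chr3:90695677-90701008) was 5332 bp wide and reached 45 bp into the gene. Its fold enrichment was 2.18, higher than 64.9% of its list, and its −log10 q was 1.10. With a −log10 q of at least 2, the S100a9 call was gone in wt and stood in wt+TNFα, where it was 2.78. The wt+TNFα peak (chr3:90676664-90701437) was 24774 bp wide, wider than 97.1% of its list, and covered 100% of the gene body, against 1.46% in wt. Over the 26744 bp from S100a8 to S100a9, H3K27me3 covered 42.2% in 5 peaks in wt and 76.5% in 2 peaks in wt+TNFα. Within 10 kb of the 5′ end of S100a8 it covered 57.9% in wt against 26.8% in wt+TNFα, and within 50 kb, which takes in the wide S100a9 peak, 32.2% against 36.9%.

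Reg3b (chr6:78370657-78373466, + strand) and Reg3g (chr6:78466269-78468872, - strand), secreted C-type lectins that bind the bacterial cell wall, lie in a cluster of Reg genes without any peak. No peak of either mark in either condition touched the 98216 bp from Reg3b to Reg3g. The nearest H3K27me3 peak, at Lrrtm1, lay 1126 kb from Reg3b and 1224 kb from Reg3g in both conditions. The nearest H3K4me3 peak, at Gcfc2, lay 3551 kb and 3455 kb away. The stretch of chromosome 6 without an H3K4me3 peak spanned 8.67 Mb in both conditions, and that without an H3K27me3 peak 4.67 Mb in wt against 4.72 Mb in wt+TNFα. These stretches also held Reg1, Reg2, Reg3a and Reg3d. The peak lists thus hold no value for Reg3b or Reg3g that could differ between conditions, which does not show that the marks were absent, since weaker signal is not listed.

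Pigr, the polymeric immunoglobulin receptor (chr1:130826684-130852249, + strand), was the gene of the 10 with H3K4me3 in wt. The covered part of its promoters was 91.4% in wt and 93.2% in wt+TNFα, with no H3K27me3 peak in either. The wt peak (chr1:130826047-130831634) was 5588 bp wide with a fold enrichment of 25.7, and the wt+TNFα peak (chr1:130825968-130831365) 5398 bp with 23.0. Both were wide for their lists, above 99.6% and 99.2% of peaks, and near the middle in fold enrichment, above 52.8% and 40.2%. The summits lay 694 bp and 693 bp downstream of the nearest start. The gain by base was 79 bp at the upstream edge, and the wt peak ended further into the gene. This gain was gone with promoters of 500 bp, with an overlap of at least 200 bp and with whole peaks subtracted, which left 2 of the 10 genes with a gain of H3K4me3 (Nos2 and Nox1). The nearest H3K27me3 peak lay 45.1 kb away in wt and 31.0 kb in wt+TNFα. Pigr shared its pattern with 42.4% of protein-coding genes.

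Other genes of these pathways were counted from lists drawn up by known roles, with earlier results of these data known, so their counts are a description and nothing is read from their distance to the shares over all protein-coding genes. Of 24 genes of reactive oxygen and nitrogen metabolism, 8 had promoter H3K4me3 in wt and 8 in wt+TNFα, and 10 and 11 had H3K27me3. The shares over all protein-coding genes were 50.5% and 51.2% for H3K4me3 and 21.7% and 29.5% for H3K27me3. Those with H3K4me3 included the partners of Nox1: Cyba, the shared membrane subunit, had it over 32.8% of its promoter in wt and 69.0% in wt+TNFα, the organizer Noxo1 over 92.0% and 100%, and the activator Noxa1 over 67.2% and 79.1%. All 3 partners were called in wt, where Nox1 itself had no peak. Cybb, the phagocyte oxidase on chromosome X, was the gene of the list with H3K27me3 in wt+TNFα alone, over 100%. By base, 7 of the 24 gained and 2 lost H3K4me3, where 40.9% and 21.1% of protein-coding genes did, and 9 gained and 1 lost H3K27me3, where 20.6% and 5.22% did.

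Of 26 secreted antimicrobial, S100 and Reg family genes, 7 had H3K4me3 in wt and 6 in wt+TNFα, where the protein-coding shares were 50.5% and 51.2%, and 6 and 8 had H3K27me3, where they were 21.7% and 29.5%. Pla2g2a, which encodes a secreted phospholipase, had H3K4me3 in wt alone, over 11.9% of its promoter. That peak was weak, with a fold enrichment of 4.65, where the median of its list was 24.6. Ang4, an antimicrobial ribonuclease, and Lyz2, the lysozyme of phagocytes, had H3K27me3 in wt+TNFα alone, over 77.5% and 100%. No peak was called at 11 of the 26, against 26.3% of protein-coding genes, among them all 5 other Reg genes of the list. Of the 4 other S100 genes of the list, S100a6, S100a10 and S100a11 had H3K4me3 in both conditions, and S100a4 had no peak of either mark in either condition. By base, 6 of the 26 gained and 1 lost H3K4me3 (40.9% and 21.1% of protein-coding genes). For H3K27me3, 5 gained and 3 lost it (20.6% and 5.22%).

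Of 14 partners and regulators, 11 had H3K4me3 in both conditions, against 50.5% of protein-coding genes in wt and 51.2% in wt+TNFα. Among these were the cytokine receptor genes Il17ra and Il22ra1 and the transcription regulator genes Nfkbiz, Stat3 and Cebpb, which are known to act on several of the 10 genes. H3K27me3 was called at 0 of the 14 in wt (21.7% of protein-coding genes) and at 2 in wt+TNFα (29.5%), Jchain, which joins immunoglobulin A monomers into the form that Pigr carries, over 100%, and Fcgbp, a mucus protein, over 2.72%. By base, 9 gained and 4 lost H3K4me3, where 40.9% and 21.1% of protein-coding genes did.

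**Figure D5:**
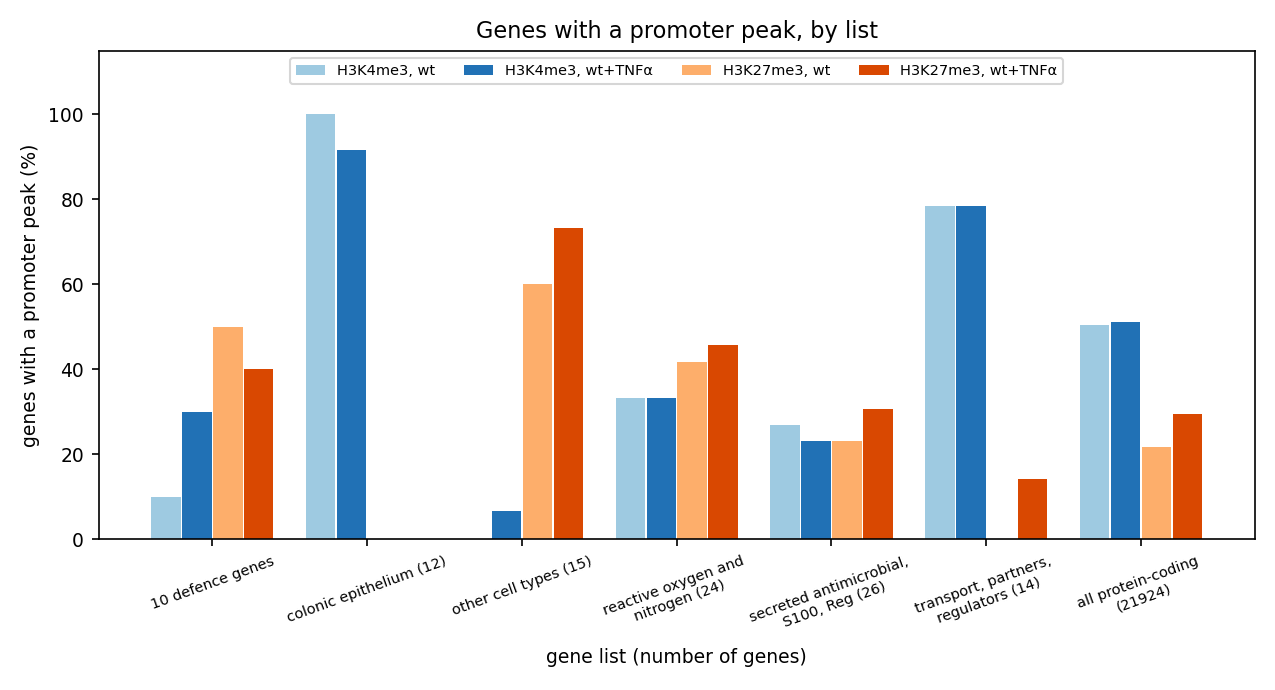
Percent of genes with a promoter peak in each of the 4 peak lists, for the 10 genes, the marker lists, the 3 lists of related genes and all protein-coding genes, with the number of genes in parentheses and 1 library per bar. The epithelial markers stand at 12 of 12 for H3K4me3 in wt with no H3K27me3, and the 10 genes at 1 and 3 for H3K4me3 and 5 and 4 for H3K27me3.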

How the data were processed

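ChIP-seq peak lists were analysed for H3K4me3 and H3K27me3 in wt and wt+TNFα organoids, grouped by the sample labels. According to the methods, the authors used fastp for trimming, BWA for alignment to GRCm38/mm10 and SAMtools for duplicate removal, left out blacklisted regions, and ran MACS2 with input as control. The reporting summary lists a broad setting for H3K27me3 and none for H3K4me3, deposited as narrow peaks. The submitters' processing notes give BWA 2.2, SAMtools 1.11 and MACS2 2.1.0; the reporting summary names another MACS2 version. The deposited fold enrichments are a ratio of ChIP signal to local background, and the deposited p-values and q-values are −log10 values. The names of 3 of the 4 lists mention a spike-in, and that of wt+TNFα H3K27me3 does not; how this affects the calls is unknown. Fold enrichments, computed per library by the authors, were ranked only within a list. The lists hold no read counts, so depth at a gene is unknown.

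Coverage was computed with Python 3.11.15 and gains and losses by base with bedtools 2.31.1 subtract, after the study's methods. Steps were tested on simulated peaks. The 10 genes and all gene lists were chosen with earlier results of these data known. All 10 genes are described, with neighbours that share their peaks and, of other lists, genes called in 1 condition alone or standing apart; genes sharing the Nos2 pattern, the Nox1 partners and other examples were chosen with their values in view. The input libraries were not analysed here. Plots used matplotlib 3.10.9.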

Additional observations from a re-analysis of the deposited data

How the results depend on the processing

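The counts of genes with a promoter peak, and of those with a gain or loss by base, were recomputed with promoters of 500 bp, of 2000 bp and from 1000 bp upstream to the start, with 1 start per gene, an overlap of at least 200 bp, stronger peaks alone, equal numbers of peaks, whole peaks subtracted and, chosen after seeing the data, autosomal genes alone. Of 72 such values, 62 stayed within 1.5 times. This limit takes 3 against 2 genes as unchanged, as where the Nox1 H3K4me3 call was lost. It also takes in every value of the H3K4me3 loss, which was 0 in all settings. When each list was limited to peaks above its own median −log10 q, H3K4me3 was called at 0 genes in wt and 0 in wt+TNFα and gained at 0, since the Nos2, Nox1 and Pigr peaks lay below the median, and the H3K27me3 loss fell to 1 (Nos2). With H3K27me3 −log10 q of at least 2, the wt count was 3 (Nos2, Duox2, Duoxa2) and the loss 1 (Nos2). With whole peaks subtracted, H3K27me3 was gained at 1 gene (Nox1) and lost at 1 (Nos2), since the Duox2, Duoxa2, S100a8 and S100a9 peaks overlap one of the other condition. The loss was 1 with promoters of 500 bp (Nos2) and 1 with 1 start per gene (S100a8). With 1 start per gene, or promoters ending at the start, the Nox1 H3K4me3 call was gone. With promoters ending at the start, H3K27me3 was gained at 3 genes, without S100a9. Of 160 covered percents under other promoter settings, 108 were at 0 in both settings. Of the 52 others, 40 lay outside the 95% Wilson interval of the reported value, which treats adjoining bases as independent and so is too narrow, and 4 fell to 0, namely Nos2 wt H3K27me3 with 1 start per gene, S100a8 wt H3K27me3 with 500 bp and Nox1 wt+TNFα H3K4me3 with 1 start per gene and with promoters ending at the start. No paired analysis was possible because each condition has 1 library per mark. Depth per gene is unknown, and promoters without a listed peak may still hold signal.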
